A study of Mus musculus with 10 samples.

Results

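The genes described here encode the subunits of the respiratory chain and of ATP synthase, with cytochrome c. They were taken from the deposited table by symbol, as protein-coding genes whose names begin with Ndufa, Ndufb, Ndufc, Ndufs or Ndufv and a number, Uqcr, Cox4 to Cox8, Atp5, mt-Nd, mt-Co, mt-Cytb or mt-Atp, plus Cyc1, Cycs, Sdha, Sdhb, Sdhc and Sdhd. The choice used no measured value. It gave 100 genes of 53392 in the table, 13 encoded by the mitochondrial genome and 87 by the nuclear genome. Complex I holds 42 of them, complex II 4, complex III 10, complex IV 23 and ATP synthase 20, and cytochrome c is the remaining gene. Ndufa4 and Ndufa4l2 were counted with complex IV, where the NDUFA4 protein sits.

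The series compared livers of Fbp1-deleted mice (n = 5) with livers of wild type mice (WT, n = 5), all C57BL/6 and aged 24 weeks, by RNA sequencing of snap-frozen tissue. The labels describe the deletion as hepatic. No source used here gives the allele, a Cre driver, the sex or the feeding state, and no other allele or treatment shared by both groups is stated. The product of Fbp1, fructose bisphosphatase, works in gluconeogenesis. Its transcript stood at 9.39 ± 2.38 CPM in Fbp1-deleted liver and 909.6 ± 119 CPM in WT liver (CPM, counts scaled to library size; mean ± SD, n = 5 each), a log2 change of -6.60 (SE 0.19).

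In oxidative phosphorylation, complex I takes electrons from NADH and complex II takes them from succinate. Ubiquinone carries them to complex III, cytochrome c carries them on to complex IV, and complex IV passes them to oxygen. Complexes I, III and IV pump protons out of the matrix, and ATP synthase, also called complex V, lets them back in to make ATP. All of these except complex II and cytochrome c hold subunits from both genomes. The mitochondrial genome is read as long precursor transcripts from both of its strands, which are then cut into messengers, while each nuclear subunit has a promoter of its own. Hepatocytes are rich in mitochondria and use them for fatty acid oxidation, urea synthesis and gluconeogenesis.

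Libraries held between 17778395 and 23894812 estimated counts. WT replicate 1 stood apart from the other libraries. Mitochondrially encoded messengers took 6.02% of its counts, against 4.52% to 5.38% in Fbp1-deleted libraries and 4.04% to 5.20% in the other 4 WT libraries. Its nuclear members with a coding sequence under 600 bases (n = 59) lay a median of 0.29 log2 units above their mean over all libraries, against -0.13 to 0.11 in the 5 Fbp1-deleted libraries and -0.08 to 0.09 in the other WT libraries. Calls that change without it are given both ways, and so are medians over all members, by genome and over complexes I, III, IV and V. Medians over smaller parts of a complex, over gene lists and over length ranges are given with all libraries only. Summed hepatocyte markers (8 genes, 2 higher and 1 lower) ranged from 89197 to 99608 CPM in Fbp1-deleted livers and from 56912 to 99352 CPM in WT livers, with the lowest value in WT replicate 5. Summed macrophage markers (7 genes, 3 lower) ranged from 160 to 255 CPM in Fbp1-deleted livers and from 241 to 322 CPM in WT livers. Summed B cell markers (4 genes, 2 of 3 tested lower) did not overlap, at 1.44 to 3.59 CPM in Fbp1-deleted livers and 3.66 to 7.04 CPM in WT livers. Of 7 endothelial markers 1 was higher (Lyve1) and 6 did not pass, all 6 with fitted changes below 0, and their sums ranged from 138 to 222 CPM in Fbp1-deleted livers and from 201 to 223 CPM in WT livers. Skeletal muscle and adipocyte markers, whose tissues use other isoforms of some subunits, summed to at most 0.892 CPM in Fbp1-deleted livers and 1.38 CPM in WT livers, and Myh2, Myh4, Lep and Ucp1 were at 0. Shares called higher were 25% of hepatocyte and 14.3% of endothelial markers, beside 10.6% over all genes tested. Shares called lower were 12.5% of hepatocyte, 42.9% of macrophage and 66.7% of tested B cell markers, beside 10%. The lists are short, and these shares were not tested against those over all genes. Whether the differences between libraries described here play a part in the results below was not tested. In whole liver, fewer cells of a type and less RNA per cell cannot be told apart.

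Of the 100 members, 94 passed the filter on low counts, all 13 mitochondrial and 81 nuclear ones. In edgeR's quasi-likelihood test with Benjamini-Hochberg adjustment over 15392 genes, 6 members were higher and 1 was lower in Fbp1-deleted liver at an adjusted p under 0.05. Over all genes tested, 20.6% passed, 10.6% higher (1636 genes) and 10% lower (1542 genes). With library totals alone the split over all genes was 1190 higher and 1965 lower, and with upper quartile scaling it was 1266 and 1878, while the same 6 members were higher under both. The shares among tested members were 6.38% higher and 1.06% lower. The median log2 change of the 94 members was -0.004, beside 0.01 over all genes tested, and it was 0.05 without WT replicate 1. For the 81 nuclear members it was -0.03, and 0.03 without that library. The middle 50% of members lay between -0.12 and 0.08, and the middle 50% of all genes between -0.28 and 0.28. In 9 members every Fbp1-deleted library lay above every WT library, and in 1 every Fbp1-deleted library lay below, beside 6.57% and 6.89% of all genes tested. Here and below, overlap was judged on CPM scaled with TMM factors only, and narrow separations depend on that scaling.

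Most uncalled members were measured closely enough to bound their change. Of the 87 that did not pass, 80 had a 95% interval inside 0.5 log2 units on either side of no change. The other 7 were Ndufb10, Ndufs5, Cox6b2, Cox7a1, Ndufa4l2, Atp5g2 and Atp5s. The median standard error of a log2 change was 0.13 for mitochondrial members and 0.10 for nuclear ones, beside 0.17 over all genes tested.

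**Figure D1:**
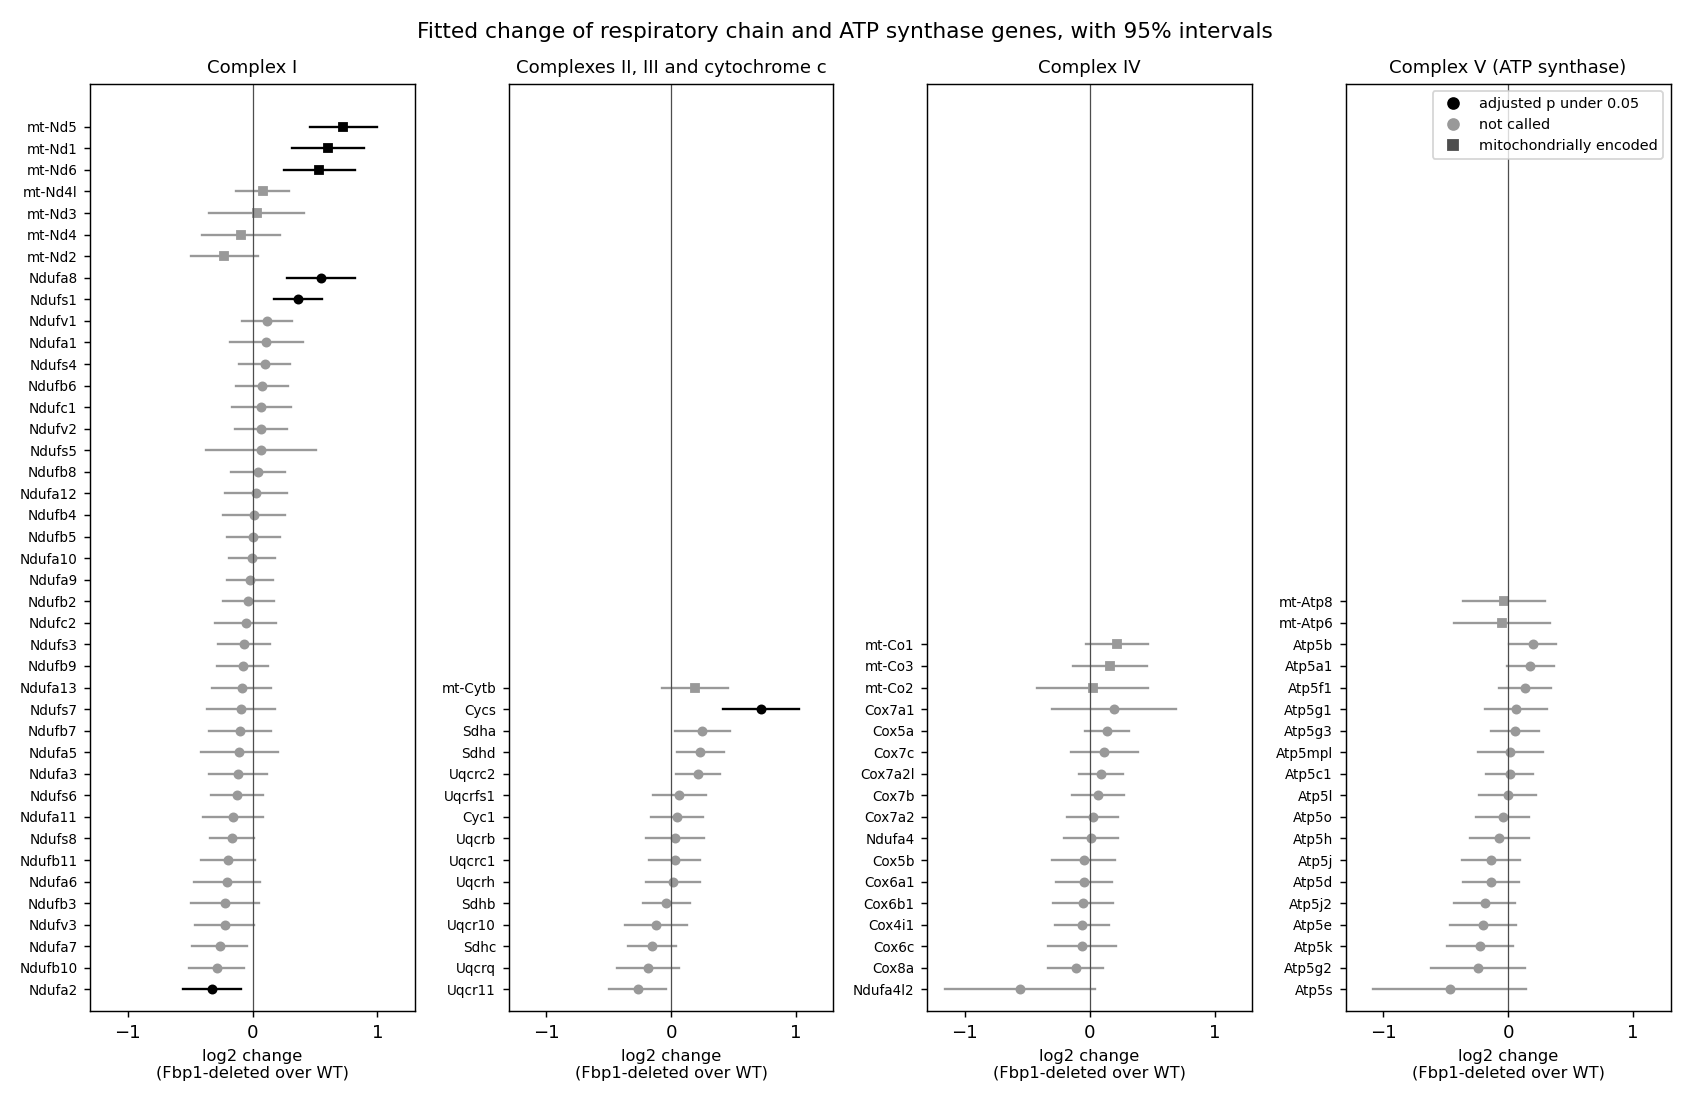
Fitted log2 change (Fbp1-deleted over WT, horizontal axis) of tested members by complex, with its 95% interval; squares are mitochondrially encoded and circles nuclear, and black marks an adjusted p under 0.05. Of the 7 called genes 6 belong to complex I, which holds 42 of the 94 tested members, and the other is Cycs. Within complex I 11.9% were higher and 2.38% lower, beside 10.6% and 10% over all genes tested. Cox6b2, at -3.17 with a standard error of 1.22, is left out of the complex IV panel, and 1 uncalled complex I gene is not shown.

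The mitochondrially encoded members include the highest levels of the set. Per kilobase of annotated transcript their median level was 3139 CPM in Fbp1-deleted liver and 2890 CPM in WT liver, against 80.3 and 80.2 CPM for the tested nuclear members. Of 13 transcripts, 3 were higher (23.1%, beside 10.6% over all genes tested) and 0 were lower (beside 10%), and the 10 others did not pass. All 3 higher transcripts encode membrane subunits of complex I, the arm that moves protons. The median change was 0.08, it was 0.22 without WT replicate 1, and it was -0.01 with library totals.

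mt-Nd5 encodes one of the antiporter-like proton pump subunits (mitochondrial genome, 11742 to 13565, plus strand, coordinates in GRCm38 throughout). It had 3978, 2955, 2697, 3850 and 3492 CPM in Fbp1-deleted libraries 6 to 10, against 1974, 2142, 2135, 2222 and 1791 CPM in WT libraries 1 to 5. All Fbp1-deleted libraries lay above all WT libraries, with Fbp1-deleted replicates 7 and 8 nearest to WT. The log2 change was 0.73 (SE 0.13, adjusted p = 0.00165, edgeR), or 1.65-fold higher.

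mt-Nd1 encodes the subunit beside the ubiquinone channel (2751 to 3707, plus strand). It had 4585, 4169, 3356, 4862 and 4056 CPM in Fbp1-deleted libraries, against 3474, 2802, 2571, 2709 and 2274 CPM in WT libraries. Only Fbp1-deleted replicate 8 lay below a WT library, and that library was WT replicate 1. The log2 change was 0.60 (SE 0.13, adjusted p = 0.007, edgeR), or 1.52-fold higher.

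mt-Nd6 is the protein-coding gene on the opposite strand of the mitochondrial genome (13552 to 14070, minus strand). It had 912, 766, 749, 825 and 815 CPM in Fbp1-deleted libraries, against 734, 607, 520, 514 and 432 CPM in WT libraries. No Fbp1-deleted library reached down into the WT range, and WT replicate 1 was the WT library nearest to the Fbp1-deleted ones. The log2 change was 0.54 (SE 0.13, adjusted p = 0.0129, edgeR). The ends of mt-Nd5 and mt-Nd6 overlap on opposite strands and the library does not mark strand. Reads over mt-Nd6 from either strand, in the shared stretch or beyond it, therefore cannot be told apart. Whether the mt-Nd6 change is separate from that of mt-Nd5 was not tested.

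The other 4 subunits of complex I from this genome did not pass. mt-Nd2, which lies directly after mt-Nd1 in the coding order, had 2538, 2075, 2211, 2756 and 2625 CPM in Fbp1-deleted libraries and 3327, 2994, 2624, 3060 and 2283 CPM in WT libraries. Its fitted change was -0.23 (SE 0.13, adjusted p = 0.22, edgeR), opposite in sign to that of its neighbour. mt-Nd4 was at -0.09, mt-Nd3 at 0.03 and mt-Nd4l at 0.08. Within complex I, fitted changes of mitochondrial transcripts thus ran from -0.23 to 0.73.

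mt-Cytb, the cytochrome b of complex III, averaged 6569 ± 562 CPM in Fbp1-deleted liver and 5748 ± 944 CPM in WT liver, a change of 0.19 (SE 0.12, adjusted p = 0.2995, edgeR). mt-Co1, the catalytic subunit of complex IV that binds oxygen, had 17429, 14772, 14828, 17365 and 18162 CPM in Fbp1-deleted libraries, against 15416, 16368, 13318, 13148 and 12676 CPM in WT libraries. The groups overlapped through WT replicates 1 and 2, with a fitted change of 0.22 (SE 0.12, adjusted p = 0.198, edgeR). mt-Co2, which takes electrons from cytochrome c, was at 0.02 and mt-Co3, the third core subunit, at 0.16. mt-Atp6, the proton channel subunit of ATP synthase, averaged 4159 ± 436 CPM in Fbp1-deleted liver and 4311 ± 1365 CPM in WT liver, and mt-Atp8, which shares part of its sequence with mt-Atp6 in another frame, was at -0.03.

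**Figure D2:**
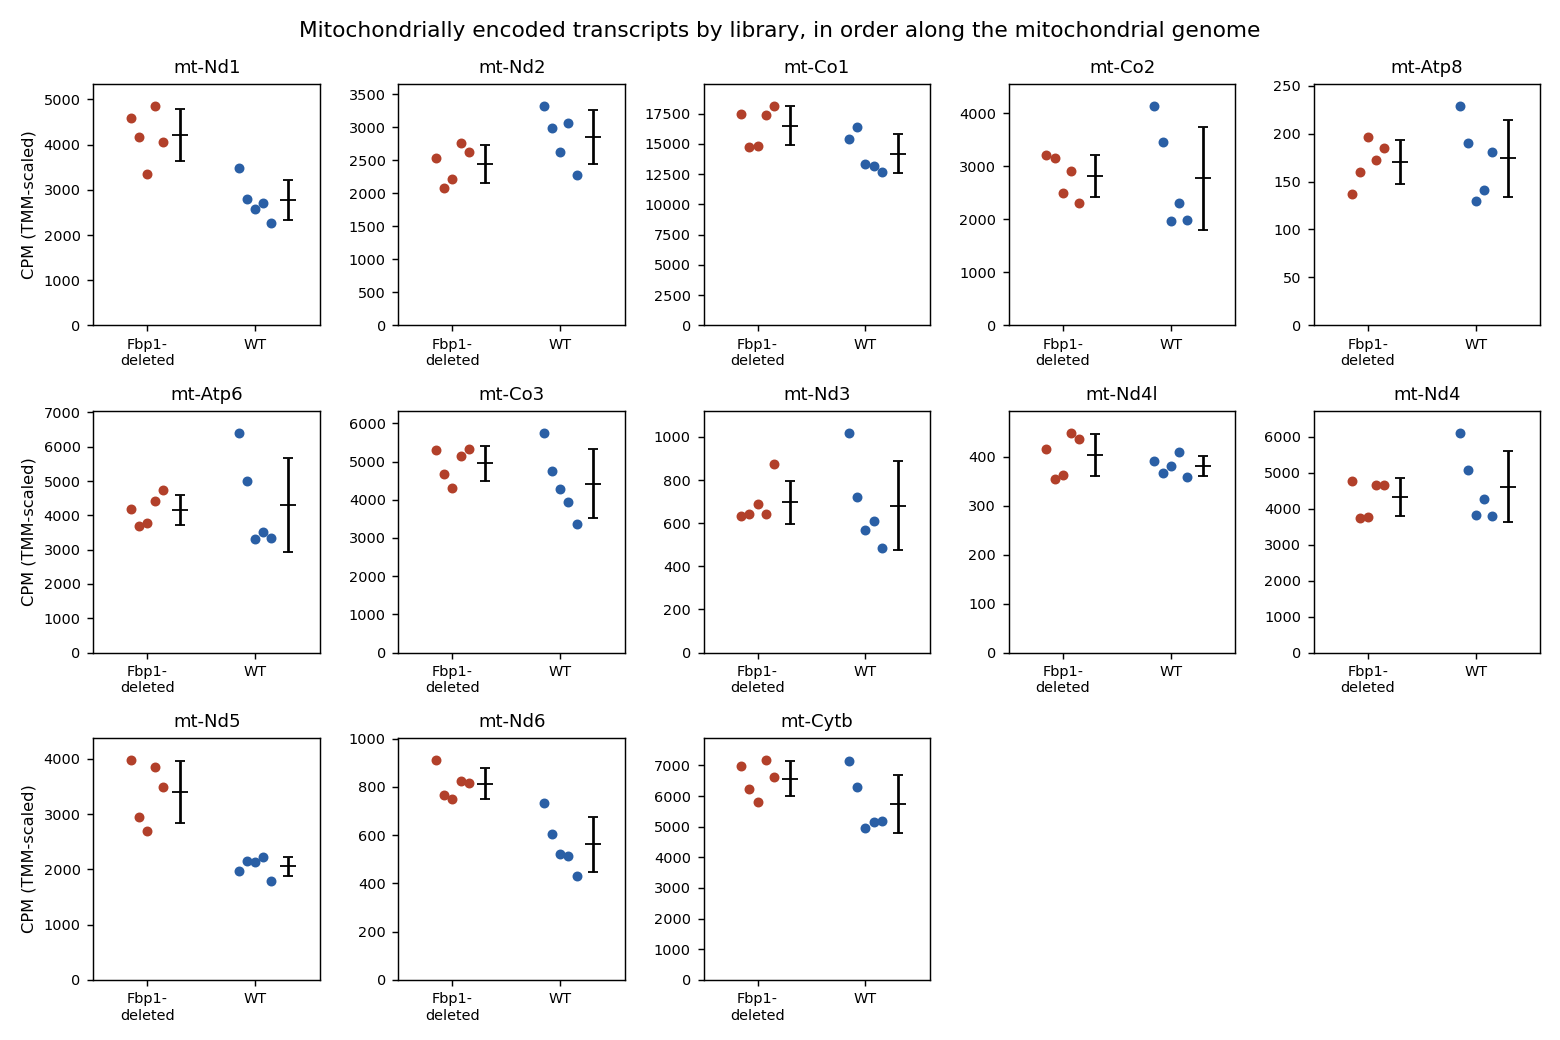
CPM of the 13 mitochondrially encoded messengers in each library, in order along the mitochondrial genome; red points are Fbp1-deleted, blue points WT in replicate order, and bars show the mean and SD (n = 5 each). mt-Nd5 and mt-Nd6 have groups that do not overlap, and WT replicates 1 and 2 are the highest WT libraries for mt-Co2, mt-Atp6, mt-Co3, mt-Nd3 and mt-Cytb.

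Summed over the 13 transcripts, the mitochondrial genome gave 51461 ± 4775 CPM in Fbp1-deleted liver and 45528 ± 7598 CPM in WT liver. The ranges overlapped, with 45234 to 55241 CPM in Fbp1-deleted libraries and 38146 to 56127 CPM in WT libraries, and the highest value of all was that of WT replicate 1. Nuclear members summed to 12982 ± 649 CPM in Fbp1-deleted liver and 12766 ± 735 CPM in WT liver. The mitochondrial sum was 3.98 ± 0.50 times the nuclear sum in Fbp1-deleted liver and 3.55 ± 0.39 times in WT liver, and these ranges overlapped too.

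Some members have annotated copies elsewhere in the genome that are nearly the same, and the deposited counts divide reads between them by a model. A copy was counted where at least 95% of bases matched over at least 80% of its length. For mt-Co2 the copy Gm28661 on chromosome 1 matched all 681 bases, and it carried 99.4% as many counts as mt-Co2 itself. For mt-Co1 the copy Gm29216 held 11.9% as many counts, and for mt-Nd3 the copy Gm28438 held 35.6%. Both lie on chromosome 1. The first 60 bases of these copies are shown beside the matching transcript bases because they show how few positions separate the reads. Capitals mark the bases that differ, which number 6 in 492 aligned bases for mt-Co1, where the stretch runs from base 1054 to base 1113 of the transcript, and 1 in 345 for mt-Nd3.
mt-Co1: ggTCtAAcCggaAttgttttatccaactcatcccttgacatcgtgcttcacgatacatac
Gm29216: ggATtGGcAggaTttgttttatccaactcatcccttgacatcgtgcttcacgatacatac
mt-Nd3: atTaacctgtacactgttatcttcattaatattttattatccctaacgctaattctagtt
Gm28438: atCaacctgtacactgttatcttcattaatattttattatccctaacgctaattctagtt

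With the counts of such copies added, the changes were 0.15 for mt-Co2 (adjusted p = 0.495, edgeR), 0.13 for mt-Co1 (adjusted p = 0.514), 0.20 for mt-Co3 (adjusted p = 0.321) and 0.06 for mt-Nd3 (adjusted p = 0.874), and none passed. No copy of mt-Nd1, mt-Nd5 or mt-Nd6 held more than 1% of the gene's counts. In Gm29216 the counts were 33027, 22850, 27055, 18403 and 29440 in Fbp1-deleted libraries, against 82198, 61746, 33549, 26461 and 21450 in WT libraries. WT replicates 1 and 2 held the highest counts of this copy. Of 5 tested copies of mitochondrial DNA in the nuclear genome none passed, and the lowest adjusted p was that of Gm28437, a copy of mt-Co3 (1.69, SE 0.56, adjusted p = 0.0636, edgeR).

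Among called nuclear members, the mobile carrier had the largest fitted change. Cycs encodes somatic cytochrome c, which also takes part in apoptosis once released from mitochondria (ENSMUSG00000063694.5, chromosome 6, 50562563 to 50566538, minus strand). It had 121, 92.9, 72.0, 124 and 98.6 CPM in Fbp1-deleted libraries, against 70.3, 60.4, 58.5, 66.9 and 52.8 CPM in WT libraries. The 2 sets of libraries did not overlap, although Fbp1-deleted replicate 8 lay close to WT replicate 1. The log2 change was 0.72 (SE 0.14, adjusted p = 0.00352, edgeR), or 1.65-fold higher. Cycs has 28 near-identical copies by the rule above, most of them short entries annotated as microRNA that align over about 107 bases. Gm10053 on chromosome 19, which is 99.9% identical over 946 bases, held 93.1% as many counts as Cycs. With all copies added, the level was 202 ± 38.5 CPM in Fbp1-deleted liver and 120 ± 9.31 CPM in WT liver, a log2 change of 0.75 (SE 0.13, adjusted p = 0.00179, edgeR).

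**Figure D3:**
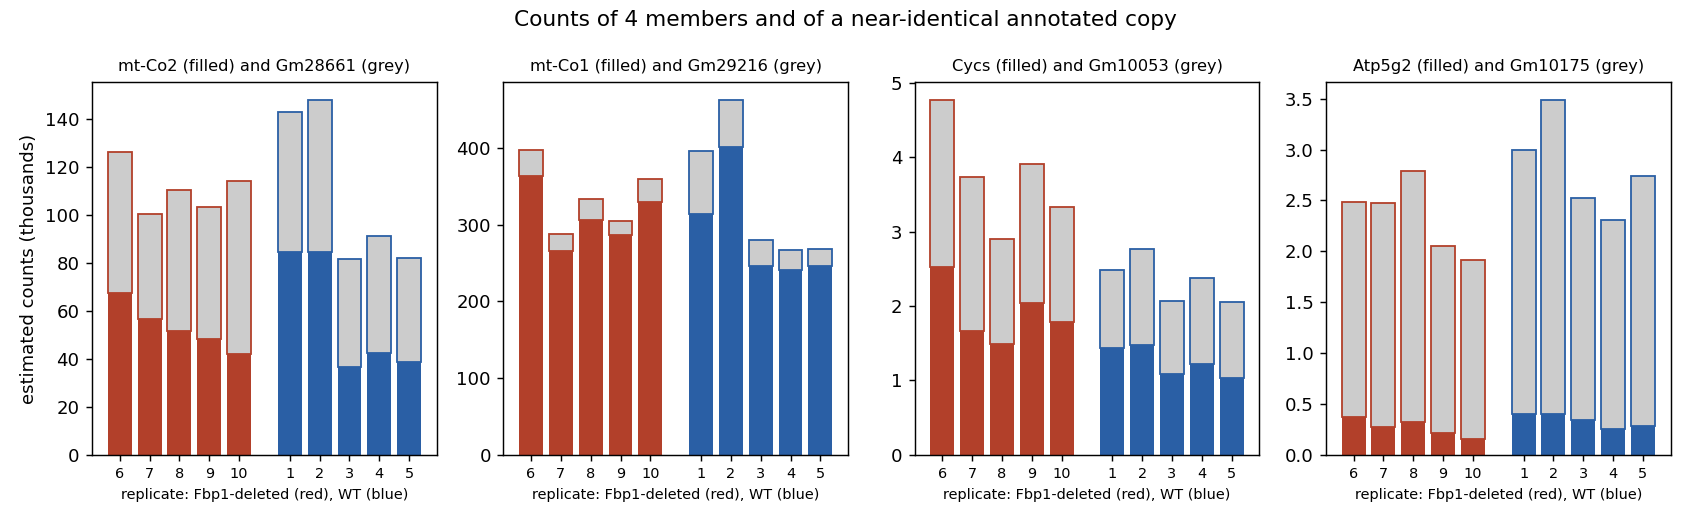
Estimated counts (vertical axis, scaled as labelled, from 0) of mt-Co2, mt-Co1, Cycs and Atp5g2 (filled) with those of a near-identical annotated copy stacked on top (grey), per replicate; Fbp1-deleted replicates 6 to 10 are red and WT replicates 1 to 5 blue. The copy's share is near that of the gene for mt-Co2 and Cycs, and for Atp5g2 the copy holds most of the counts.

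Complex I has 35 nuclear members, of which 2 were higher and 1 was lower. These shares were 5.71% and 2.86%, beside 10.6% and 10% over all genes tested. The median change of the nuclear members was -0.05. Over all 42 members of complex I the median was -0.03, and it turned to 0.03 without WT replicate 1. Ndufa8, an accessory subunit of the membrane arm with twin cysteine motifs (ENSMUSG00000026895.7, chromosome 2, 36036326 to 36049406, minus strand), had 152, 196, 141, 145 and 120 CPM in Fbp1-deleted libraries, against 113, 108, 110.0, 92.0 and 92.7 CPM in WT libraries. Every Fbp1-deleted library lay above every WT library, with replicate 7 the highest. The log2 change was 0.55 (SE 0.13, adjusted p = 0.00859, edgeR), or 1.46-fold higher.

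Ndufs1 encodes the largest core subunit, which holds iron-sulfur clusters on the path from NADH (ENSMUSG00000025968.16, chromosome 1, 63143596 to 63176833, minus strand). It had 115, 96.0, 95.2, 108 and 114 CPM in Fbp1-deleted libraries, against 78.8, 88.3, 82.1, 81.0 and 80.6 CPM in WT libraries. Every WT library lay below every Fbp1-deleted one, and the fit gave 0.36 (SE 0.09, adjusted p = 0.0128, edgeR). Its exons overlap those of Eef1b2 and Ino80dos, and part of its counts is therefore uncertain.

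Ndufa2, an accessory subunit of the matrix arm (ENSMUSG00000014294.4, chromosome 18, 36742332 to 36744557, minus strand), had 58.8, 77.0, 74.95, 63.2 and 62.5 CPM in Fbp1-deleted libraries, against 100.4, 82.5, 81.5, 79.3 and 77.7 CPM in WT libraries. Fbp1-deleted libraries all lay below WT, by a margin of under 1 CPM, and WT replicate 1 stood far above the other 4. The log2 change was -0.32 (SE 0.11, adjusted p = 0.0472, edgeR). The call ended without WT replicate 1 (-0.26, adjusted p = 0.103). It also ended without WT replicate 2 (adjusted p = 0.084), 3 (0.0695), 4 (0.0515) or 5 (0.0544) and without Fbp1-deleted replicate 6 (0.128), 9 (0.112) or 10 (0.0899). Its exons overlap those of Tmco6.

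The 7 nuclear core subunits, which carry the flavin and the iron-sulfur clusters or line the ubiquinone site, ranged from -0.17 for Ndufs8 to 0.36 for Ndufs1. Ndufv1, which binds NADH, averaged 210 ± 20.1 CPM in Fbp1-deleted liver and 194 ± 9.65 CPM in WT liver, and it did not pass (0.12, SE 0.09). The 28 accessory subunits had a median of -0.07 with all libraries. After Ndufa2 the lowest were Ndufb10 (-0.29, SE 0.10, adjusted p = 0.0613, edgeR) and Ndufa7 (-0.26, SE 0.10, adjusted p = 0.0869). Ndufb10 had 95.5, 110, 112, 102 and 98.5 CPM in Fbp1-deleted libraries, against 152, 131, 120, 110 and 120 CPM in WT libraries, so that the groups overlapped at WT replicate 4.

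**Figure D4:**
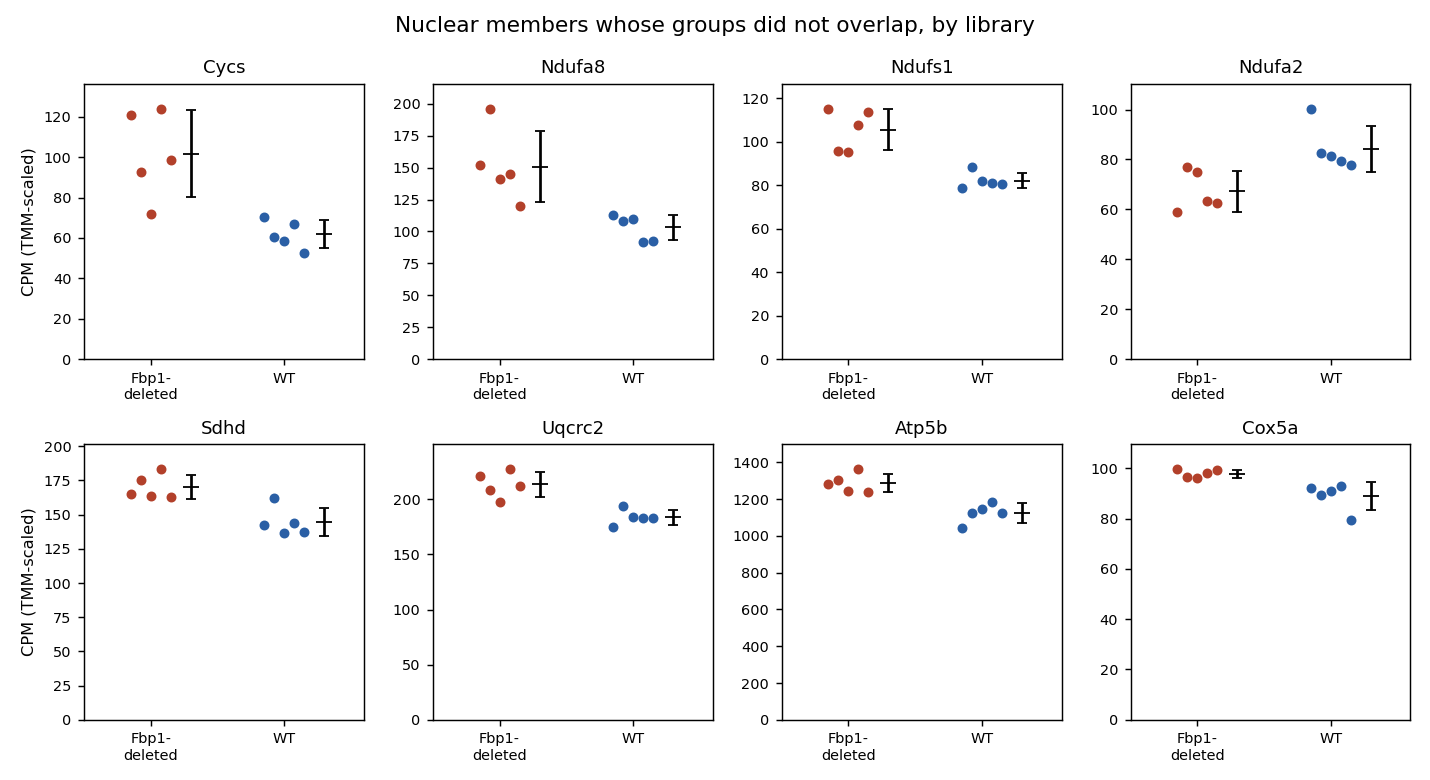
CPM by library of the 8 nuclear members whose groups did not overlap; red points are Fbp1-deleted, blue points WT in replicate order, and bars show the mean and SD (n = 5 each). Cycs, Ndufa8 and Ndufs1 were called higher and Ndufa2 lower, while Sdhd, Uqcrc2, Atp5b and Cox5a were higher in every Fbp1-deleted library but did not pass the test. Of 81 tested nuclear members 7 were higher and 1 was lower without overlap, beside 6.57% and 6.89% of all genes tested.

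Complex II, which is also the succinate dehydrogenase of the citric acid cycle, is wholly nuclear, and none of its 4 subunits passed. The sum over the 4 genes nevertheless did not overlap between groups on TMM-scaled CPM, with 1018 to 1059 CPM in Fbp1-deleted libraries and 878 to 981 CPM in WT libraries. The TMM factor was 0.97 in Fbp1-deleted replicate 7, which had the lowest sum of its group, and 1.03 in WT replicate 2. Without these factors WT replicate 2 lies above Fbp1-deleted replicate 7, so the separation depends on the scaling. Sdha, the flavin-bearing catalytic subunit, makes up most of that sum. It had 597, 536, 562, 574 and 572 CPM in Fbp1-deleted libraries, against 384, 475, 537, 492 and 502 CPM in WT libraries, with WT replicate 1 the lowest and WT replicate 3 just above the lowest Fbp1-deleted value. Its change was 0.25 (SE 0.10, adjusted p = 0.099, edgeR). Sdhd, a membrane anchor that binds ubiquinone, had 165, 175, 164, 183 and 163 CPM in Fbp1-deleted libraries, against 143, 162, 136, 144 and 138 CPM in WT libraries. The groups did not overlap on TMM-scaled CPM, by a narrow margin at WT replicate 2 that depends on the scaling. The fitted change was 0.23 (SE 0.09, adjusted p = 0.0746, edgeR). Sdhb, the iron-sulfur subunit, was at -0.04 (SE 0.09), and Sdhc, the other anchor, at -0.15 (SE 0.09).

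None of the 10 members of complex III passed, and their median change was 0.03, or 0.05 without WT replicate 1. The 3 subunits that carry electrons are mt-Cytb, the heme protein Cyc1 and the Rieske iron-sulfur protein Uqcrfs1. Cyc1 averaged 210 ± 20.4 CPM in Fbp1-deleted liver and 203 ± 13.4 CPM in WT liver, and Uqcrfs1 averaged 171 ± 8.79 CPM in Fbp1-deleted liver and 164 ± 18.8 CPM in WT liver. Uqcrc2, a core protein of the matrix side, had 222, 209, 198, 227 and 213 CPM in Fbp1-deleted libraries, against 175, 194, 184, 183 and 183 CPM in WT libraries. Its groups did not overlap, and its change was 0.22 (SE 0.08, adjusted p = 0.0822, edgeR). Uqcr11, a small subunit, had the lowest fitted change (-0.27, SE 0.11, adjusted p = 0.0926, edgeR). Uqcrc2 shares exonic bases with Pdzd9.

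None of the 18 tested members of complex IV passed either, and their median change was 0.02, or 0.08 without WT replicate 1. Cox4i1, a regulatory subunit, averaged 481 ± 52.6 CPM in Fbp1-deleted liver and 501 ± 31.1 CPM in WT liver. Cox5a, a subunit on the matrix side, had 99.5, 96.4, 96.0, 98.3 and 99.2 CPM in Fbp1-deleted libraries, against 92.0, 89.5, 90.8, 92.9 and 79.4 CPM in WT libraries. The groups did not overlap on TMM-scaled CPM, by a narrow margin that depends on the scaling. The fitted change was 0.14 (SE 0.08, adjusted p = 0.252, edgeR).

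Complex IV is also where tissue-specific isoforms are best known, and the liver forms held nearly all counts in both groups. Per kilobase, Cox4i1 made up 99.97% ± 0.02 of the Cox4i transcripts in Fbp1-deleted liver and 99.95% ± 0.04 in WT liver (SD, n = 5 each). Cox7a1, the heart and muscle form of subunit VIIa, made up 5.47% ± 1.06 of the Cox7a pair in Fbp1-deleted liver and 4.90% ± 0.76 in WT liver. The Cox7a1 level was 2.54 ± 0.57 CPM in Fbp1-deleted liver and 2.21 ± 0.45 CPM in WT liver, and it did not pass (adjusted p = 0.584, edgeR). Ndufa4l2, a paralog of Ndufa4 at 0.827 ± 0.0988 CPM in Fbp1-deleted liver and 1.22 ± 0.302 CPM in WT liver, did not pass either (-0.56, SE 0.28, adjusted p = 0.177, edgeR). The muscle form Cox6a2, the lung form Cox4i2, Cox7b2, Cox8b and Cox8c were not tested because of low counts. Cox4i2 reached 3 counts in an Fbp1-deleted library and 5 in a WT library, Cox8b reached 4 in each, and Cox8c had none in any library.

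Cox6b2, the testis form of subunit VIb, was the member with the largest fitted change, and it rested on a single library. It had 0.0958, 0.669, 0.582, 0.303 and 0.772 CPM in Fbp1-deleted libraries, against 1.03, 0.940, 0.379, 0.874 and 18.8 CPM in WT libraries. WT replicate 5 was far above all others, and the fitted change of -3.17 had a standard error of 1.22 (adjusted p = 0.0981, edgeR). In that library Cox6b1, the common form, made up 92.3% of the pair per kilobase, against 99.7% to 99.96% in Fbp1-deleted libraries and 99.7% to 99.9% in the other WT libraries.

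ATP synthase had no called member among 19 tested, with a median change of -0.04 that turned to 0.05 without WT replicate 1. In the catalytic head, Atp5b, the beta subunit that holds the active sites, had 1283, 1306, 1245, 1361 and 1240 CPM in Fbp1-deleted libraries, against 1041, 1123, 1145, 1184 and 1126 CPM in WT libraries. The groups did not overlap, with a fitted change of 0.20 (SE 0.09, adjusted p = 0.132, edgeR). Atp5a1, the alpha subunit, averaged 968 ± 33.7 CPM in Fbp1-deleted liver and 856 ± 45.0 CPM in WT liver, with a change of 0.18 (SE 0.09, adjusted p = 0.173, edgeR). Atp5c1, the gamma subunit of the turning stalk, was at 0.01, and the small stalk subunits Atp5d and Atp5e were at -0.14 and -0.20. The 4 subunits of the peripheral stalk ranged from -0.13 for Atp5j to 0.14 for Atp5f1.

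The c ring, which turns as protons pass, is made from identical proteins encoded by Atp5g1, Atp5g2 and Atp5g3. Per kilobase, Atp5g3 gave 75.7% ± 2.10 of the c subunit transcripts in Fbp1-deleted liver and 74.96% ± 0.73 in WT liver, and Atp5g1 gave 20.1% ± 1.62 in Fbp1-deleted liver and 19.8% ± 0.66 in WT liver. By raw counts, without length, Atp5g3 gave 61.0% in Fbp1-deleted liver and 60.7% in WT liver, and Atp5g1 gave 36.4% in Fbp1-deleted liver and 36.1% in WT liver. Atp5g2 gave 4.27% ± 1.01 in Fbp1-deleted liver and 5.22% ± 0.58 in WT liver per kilobase. Its level is uncertain, because the copy Gm10175 on chromosome 7 is identical over 645 bases and carried 757% as many counts as Atp5g2. Atp5g2 alone averaged 14.0 CPM in Fbp1-deleted liver and 16.6 CPM in WT liver, and 124 and 139 CPM with that copy added. All 3 shares, and the rank of Atp5g1 above Atp5g2, therefore depend on how reads were divided. The shares were not recomputed with the copy added. With that copy added Atp5g2 was at -0.16 (SE 0.10, adjusted p = 0.272, edgeR).

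Fitted changes of the nuclear members differed with the length of the coding sequence. The 38 tested members with fewer than 400 coding bases had a median change of -0.05, and the 11 members with at least 1000 bases had a median of 0.12. Over all protein-coding genes tested the medians were -0.11 (n = 642) under 400 bases and 0.06 (n = 9030) from 1000 bases. Across members, Spearman's rho between the change and the coding length was 0.28 (n = 81), and across all protein-coding genes tested it was 0.14 (n = 13227). Without WT replicate 1 rho was 0.12 across members and 0.10 across all protein-coding genes. Genes are not independent replicates, and the values share the same 10 libraries. Of the 11 members with at least 1000 bases 8 had positive changes, among them Sdha, Uqcrc2, Atp5b, Atp5a1 and Ndufs1, named above. Ndufv3 (-0.22), Ndufa9 (-0.02) and Ndufa10 (-0.01) had negative changes. Of the 11 only Ndufs1 was called. Whether length plays a part in these changes was not tested.

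**Figure D5:**
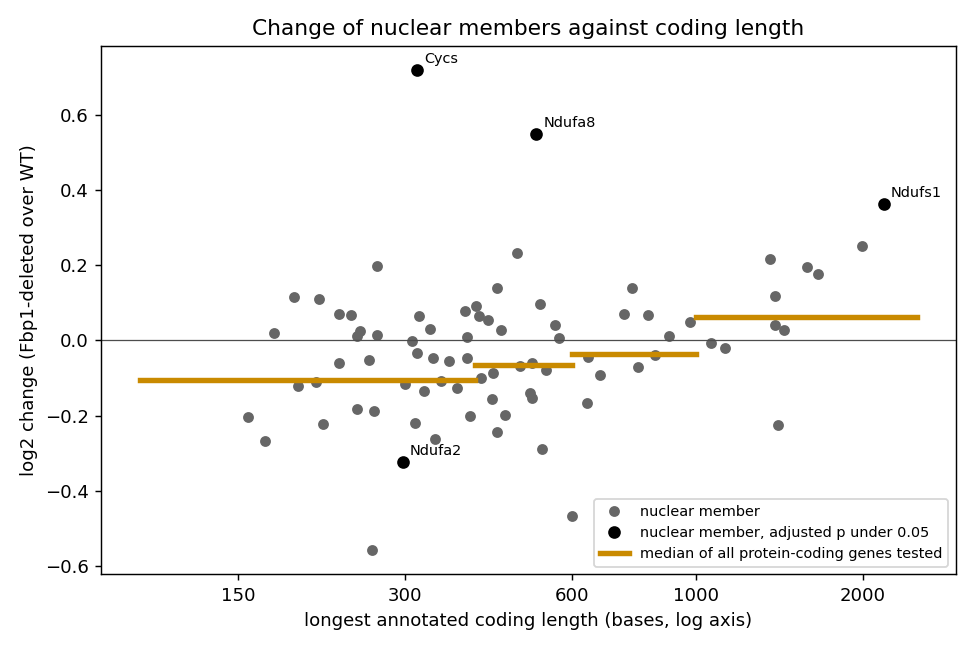
Fitted log2 change (Fbp1-deleted over WT) of the tested nuclear members against longest annotated coding length in bases (log axis), with the median of all protein-coding genes tested in 4 length ranges as bars; Cox6b2 at -3.17 is left out. Medians of all genes run from -0.11 under 400 bases to 0.06 from 1000 bases, and Cycs and Ndufa8 stand above the other members of their length.

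Promoter sequences of the nuclear members were read from the RefSeq table of GRCm38.p6, 250 bases before to 50 after a start, which held 74 windows for 69 of the 87 genes. Motifs of known regulators of respiratory genes were searched on both strands. The NRF1 motif, GCGCA and GCGC with 1 free base between them, was in 24.3% of member windows and 4.6% of all 32851 windows. The YY1 motif AAGATGGCG was in 9.46% of member windows and 1.4% of all, the GABPA motif CCGGAAG in 21.6% and 8.86%, and the ESRRA motif TCAAGGTCA in 2.7% and 0.423%. Only exact matches were counted. Of the called nuclear members, Ndufa8 held a match, to NRF1, and Cycs held none of these 4 exact letter strings in this window. The Cycs window does hold tcgcatgcgc, which differs from the NRF1 string only in its first base. Ndufs1 and Ndufa2 were not searched. The windows of Ndufa8 and Cycs are shown because these are the called nuclear members with the larger changes. Ndufa8 lies at chr2:36049289-36049588 and Cycs at chr6:50566520-50566819, both on the minus strand, and capitals mark the NRF1 match.
Ndufa8: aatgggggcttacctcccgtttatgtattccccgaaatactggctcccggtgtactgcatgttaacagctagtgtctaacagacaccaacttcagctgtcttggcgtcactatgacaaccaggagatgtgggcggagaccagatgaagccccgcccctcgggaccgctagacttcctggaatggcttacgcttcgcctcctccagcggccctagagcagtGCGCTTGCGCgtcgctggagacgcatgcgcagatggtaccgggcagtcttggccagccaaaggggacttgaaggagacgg
Cycs: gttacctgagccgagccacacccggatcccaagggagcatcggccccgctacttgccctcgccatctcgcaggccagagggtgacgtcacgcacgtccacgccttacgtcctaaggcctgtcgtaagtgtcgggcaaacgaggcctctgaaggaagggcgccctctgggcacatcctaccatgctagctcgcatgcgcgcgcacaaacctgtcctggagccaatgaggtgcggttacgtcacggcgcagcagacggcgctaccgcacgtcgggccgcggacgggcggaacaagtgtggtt

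Transcripts of nuclear regulators of respiratory genes were examined beside the members. Of 18 tested regulators, 4 were higher and 2 were lower, shares of 22.2% and 11.1% beside 10.6% and 10% over all genes tested. Ppargc1a, a coactivator of mitochondrial genes, had 69.1, 51.7, 25.3, 87.5 and 90.9 CPM in Fbp1-deleted libraries, against 10.4, 10.1, 9.91, 10.3 and 10.2 CPM in WT libraries. It was lowest in Fbp1-deleted replicate 8 and changed by 2.67 (SE 0.30, adjusted p = 0.000266, edgeR). Esrra, an orphan receptor that Ppargc1a works with, averaged 70.3 ± 17.1 CPM in Fbp1-deleted liver and 48.2 ± 3.95 CPM in WT liver, a change of 0.54 (SE 0.15, adjusted p = 0.0201, edgeR). The Esrra call ended without Fbp1-deleted replicate 6 (0.44, adjusted p = 0.06) or 7 (0.48, adjusted p = 0.0525). Esrrg, a related receptor, was lower at -1.32 (SE 0.36, adjusted p = 0.0201, edgeR), and its call ended without WT replicate 5 (adjusted p = 0.0533) or Fbp1-deleted replicate 9 (0.0549). Nrf1 (0.38), Yy1 (0.30) and Rxra (-0.36) also passed but lost their calls without 9, 8 and 5 of the 10 single libraries, with adjusted p up to 0.12, 0.107 and 0.0679.

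Of 40 tested genes that replicate, read or translate the mitochondrial genome, 4 were higher (Gfm1, Tbrg4, Lrpprc and Fastkd1) and 2 were lower (Twnk and Polg2). These shares were 10% and 5%, beside 10.6% and 10% over all genes tested. Gfm1, a mitochondrial elongation factor, averaged 79.0 ± 6.94 CPM in Fbp1-deleted liver and 54.5 ± 5.03 CPM in WT liver, a change of 0.54 (SE 0.10, adjusted p = 0.00238, edgeR). Tfam, which packages mitochondrial DNA and starts its transcription, averaged 38.7 ± 3.69 CPM in Fbp1-deleted liver and 38.4 ± 1.71 CPM in WT liver, and did not pass (0.01, SE 0.09). Twnk, the replicative helicase, was at -0.39 (SE 0.10), and its call ended without Fbp1-deleted replicate 6 (-0.36, adjusted p = 0.0541). Lrpprc, Fastkd1 and Polg2 lost their calls without 4, 5 and 6 of the single libraries, with adjusted p up to 0.0585, 0.075 and 0.0752. Of 78 proteins of the mitochondrial ribosome, 6 were higher (7.69%) and 0 were lower, with a median of 0.03. The 6 were led by Mrps31 at 0.43 (SE 0.09, adjusted p = 0.00614, edgeR), Mrpl47 at 0.62 (SE 0.15, adjusted p = 0.0102) and Mrpl16 at 0.34 (SE 0.09, adjusted p = 0.0155). Mrpl16 lost its call with library totals (0.25, adjusted p = 0.0659, edgeR), upper quartile scaling (0.27, adjusted p = 0.0546) and no filter (0.33, adjusted p = 0.0806). Of the other 3, Mrps2, Mrpl3 and Mrps30 lost their calls without 1, 5 and 8 of the single libraries (adjusted p up to 0.0546, 0.0645 and 0.128).

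Assembly factors help to build the complexes and were not counted among the members. For complex I, 1 of 17 was higher and 1 was lower (5.88% each, beside 10.6% higher and 10% lower over all genes tested). Ndufaf4, an assembly factor of the matrix arm, had 56.3, 45.2, 38.4, 48.1 and 48.3 CPM in Fbp1-deleted libraries, against 34.2, 28.8, 28.4, 31.9 and 24.6 CPM in WT libraries. The groups did not overlap, with a fitted change of 0.67 (SE 0.12, adjusted p = 0.00188, edgeR). Tmem126b, a factor for the membrane arm, was at -0.38 (SE 0.10, adjusted p = 0.0171, edgeR), and its call ended without WT replicate 2 (-0.34, adjusted p = 0.0513). For complex IV, 3 of 23 were higher and 1 was lower. Sco2, which delivers copper, averaged 102 ± 23.8 CPM in Fbp1-deleted liver and 50.7 ± 14.5 CPM in WT liver, a change of 1.01 (SE 0.19, adjusted p = 0.00378, edgeR). Cox10, which makes the heme of complex IV, was at 0.65 (SE 0.14, adjusted p = 0.00556, edgeR). Cox11 (0.52) and Surf1 (-0.32) passed, and their calls ended without 4 and 7 of the single libraries (adjusted p up to 0.062 and 0.0916). For complex III, Ttc19 was higher among 6 (16.7%), at 0.35, and lost its call without 7 single libraries (adjusted p up to 0.112). None of 4 factors for complex II and none of 5 for ATP synthase passed. The lowest adjusted p values there were those of Sdhaf4 (-0.21, SE 0.14, adjusted p = 0.314, edgeR) and Fmc1 (-0.28, SE 0.14, adjusted p = 0.182, edgeR).

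The enzymes that pass electrons to ubiquinone from outside complexes I and II were also examined, with 3 higher and 3 lower of 8 tested. Each share was 37.5%, beside 10.6% higher and 10% lower over all genes tested. Gpd2, the mitochondrial glycerol phosphate dehydrogenase, had 79.5, 72.0, 71.2, 81.9 and 74.6 CPM in Fbp1-deleted libraries, against 19.1, 20.5, 26.5, 18.1 and 33.1 CPM in WT libraries. The groups lay far apart, with a fitted change of 1.69 (SE 0.15, adjusted p = 1.33e-05, edgeR), or 3.23-fold higher. Chdh, which oxidises choline, averaged 258 ± 13.7 CPM in Fbp1-deleted liver and 176 ± 31.7 CPM in WT liver, and Etfdh, which takes electrons from fatty acid oxidation, averaged 271 ± 42.5 CPM in Fbp1-deleted liver and 180 ± 27.8 CPM in WT liver. Their changes were 0.56 (SE 0.12) and 0.59 (SE 0.13). Prodh, which oxidises proline, had 88.3, 103, 154, 98.5 and 139 CPM in Fbp1-deleted libraries, against 313, 322, 292, 261 and 350 CPM in WT libraries. All Fbp1-deleted libraries lay below all WT libraries, with a log2 change of -1.40 (SE 0.15, adjusted p = 6.34e-05, edgeR). Dhodh, of pyrimidine synthesis, was at -0.58 (SE 0.14) and called lower, and so was Sqor, which oxidises sulfide, at -0.40 (SE 0.11), though Sqor lost its call without WT replicate 2 or Fbp1-deleted replicate 6 or 9 (adjusted p up to 0.0574). Etfa and Etfb, the flavoprotein that feeds Etfdh, were at 0.02 and -0.24 and did not pass.

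Genes that make ubiquinone or serve ATP synthase were counted beside the same 10.6% higher over all genes tested. Of 13 genes of ubiquinone synthesis 1 was higher (7.69%), the ubiquinone-binding protein Coq10b, at 90.9 ± 23.9 CPM in Fbp1-deleted liver and 45.0 ± 6.97 CPM in WT liver (1.02, SE 0.17, adjusted p = 0.00163, edgeR). Of 12 genes for carriers, porins and coupling 3 were higher (25%) and 0 were lower. Slc25a3, which imports the phosphate that ATP synthase uses, averaged 345 ± 37.7 CPM in Fbp1-deleted liver and 263 ± 7.78 CPM in WT liver (0.39, SE 0.10, adjusted p = 0.0125, edgeR). Vdac3, a porin of the outer membrane, passed at 0.30 but lost its call without 6 of the single libraries (adjusted p up to 0.0724). Among subunits and partners of the complexes under other symbols, Ndufab1, the acyl carrier subunit of complex I, was at 0.04 (SE 0.10). Atpif1, the inhibitor of ATP synthase, was at -0.56 (SE 0.18, adjusted p = 0.0447, edgeR), and its call ended without WT replicate 1 (-0.38, adjusted p = 0.109) and without 5 other single libraries (adjusted p up to 0.105).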

How the data were processed

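RNA of 10 mouse livers was made into mRNA libraries that do not keep strand, per the labels' protocols. The authors deposited whole-number estimated counts per gene; CASAVA, Salmon and the build GRCm38 are listed per the submitters' processing notes, and whether counts were adjusted for transcript length is not given in the sources used here. The series' design text also describes STAR and featureCounts, and calls the 5 libraries of a group biological replicates. Identifiers were matched to GENCODE M21 (52175 with version, 1180 with another version, 37 unmatched and kept).

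Genes were filtered with filterByExpr, scaled by TMM and tested with edgeR 4.0.16 (robust quasi-likelihood F test, group as the only term, R 4.3.3), with Benjamini-Hochberg adjustment over 15392 genes and a threshold of 0.05. SE was taken as the absolute log2 change over the root of the F statistic. The biological coefficient of variation was 0.235. On simulated data for this comparison, 32 of 100 genes changed 1.5-fold and 48 of 100 changed 2-fold were recovered, with 2 false calls. No other gene was changed in the simulation, whereas 20.6% of genes passed in the data. The changed genes were drawn from all genes tested, so the recovery does not give the power for the members. Copies were found with BLAST+ 2.17.0. Lengths are annotated exon unions.

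Members, lists and the naming rule were chosen with earlier results of these data known. Named were called members, mitochondrial transcripts, the 2 smallest adjusted p per complex and genome, core subunits, tissue isoforms and members not tested; outside the members, the 3 smallest adjusted p per list and 8 fixed genes. Other genes, named to complete a short count or as range ends, were chosen after their values were seen. Alternatives were RLE, upper quartile and no scaling factors, totals without mitochondrial messengers, no or a stricter filter, DESeq2 1.42.0, limma-voom (limma 3.58.1), no robust shrinkage, a 0.01 threshold, each library left out, and copies added. Adding copies to nuclear members and the length comparison without WT replicate 1 were chosen after seeing the data. Results on 2 genes are not reported here.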

Additional observations from a re-analysis of the deposited data

Results flagged for a closer look

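Values that stood apart from the other 4 libraries of their group were found in 5 of 188 groups checked, where chance gives about 1 in 20 groups. Ndufa2 was 100.4 CPM in WT replicate 1, against 77.7 to 82.5 CPM in the other WT libraries. mt-Nd3 was 873 CPM in Fbp1-deleted replicate 10, against 633 to 691 CPM in the other Fbp1-deleted libraries. Cox6b2 was 18.8 CPM in WT replicate 5, against 0.379 to 1.03 CPM in the other WT libraries. Cox5a was lowest in WT replicate 5, at 79.4 CPM against 89.5 to 92.9 CPM. Usmg5, a small subunit of ATP synthase under another symbol, was lowest in Fbp1-deleted replicate 8, at 88.8 CPM against 100.3 to 104.8 CPM.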

How the results depend on the processing

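Cycs, mt-Nd1, mt-Nd5, mt-Nd6, Ndufa8 and Ndufs1 were called higher in each of 20 other fits, with adjusted p of at most 0.0494, and Ndufa2 was called lower in 10 of them. At a threshold of 0.01, 4 members were higher. DESeq2 called 10 members higher, adding Atp5a1, Atp5b, Sdhd and Uqcrc2. Lower members numbered 4 with library totals, 3 with upper quartile scaling, 2 with the stricter filter, with DESeq2 and without robust shrinkage, and 0 without mitochondrial messengers in the totals, without a filter and at a threshold of 0.01. With library totals the median log2 change was -0.0935 for members, -0.125 for nuclear members, and -0.117, 0.00865, -0.0608, -0.0763 and -0.133 for complexes I to V. With upper quartile scaling it was -0.0813 for members and -0.102, 0.0227, -0.0463, -0.0661 and -0.12 for complexes I to V. These 2 settings shift all genes together, and the cause of the difference between scalings was not tested. Leaving out each library in turn gave 0 to 2 lower members, and medians of 0.0496 to 0.222 for mitochondrial members, -0.12 to 0.0458 for complex V and 0.0659 to 0.12 for complex II, with the highest mitochondrial and complex V values without WT replicate 1 and the lowest complex II value without WT replicate 5. Over all genes it gave 1066 to 2060 higher and 1019 to 1858 lower, and a threshold of 0.01 gave 678 higher and 633 lower; the lowest counts came without Fbp1-deleted replicates 9 and 6, and the highest without replicate 8. No paired analysis was possible because the replicate numbers are 6 to 10 in Fbp1-deleted liver and 1 to 5 in WT liver. Depth limits the muscle, lung and testis isoforms, which had few counts. Division between near-identical copies limits mt-Co2, Cycs, Atp5g2 and Ndufb4, and to a lesser degree mt-Nd3 and mt-Co1. For Ndufb4 the copy Ndufb4c held 65.9% as many counts. The Ndufb4 change was 0.01 alone and -0.05 with copies added (adjusted p = 0.743, edgeR).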

Other observations

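Some genes around the members were detected in part of the libraries only. The processed pseudogene BC002163, a near-identical copy of Ndufs5 on chromosome 16, had 115 counts in Fbp1-deleted replicate 8 and 0 in the other Fbp1-deleted libraries, against 82 in WT replicate 3, 68 in WT replicate 4 and at most 1 in the other WT libraries. Nnt, the proton-driven transhydrogenase of the inner membrane, has 2 entries in the table. One entry (ENSMUSG00000116207.1) stood at 20.4, 40.2, 9.60, 0 and 13.2 CPM in Fbp1-deleted libraries and at 18.7, 27.0, 0, 0 and 0 CPM in WT libraries. The other (ENSMUSG00000025453.18) stood at 34.1 to 56.2 CPM in Fbp1-deleted libraries and 23.9 to 54.0 CPM in WT libraries. Neither entry passed the test (adjusted p = 0.734 and 0.897, edgeR).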
